A study of Rattus norvegicus with 3 samples.

Results

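A total of 16539 regions were listed as higher in the MLP-F library than in the C library and overlapped no region of either list in which MLP was the higher library. They were 68.0% (95% Wilson interval 67.5 to 68.6) of the 24305 MLP-F vs. C regions on chromosomes 1 to 20. The full MLP-F vs. C list held 25578 regions, and the 3 lists of the series held 95306. Membership was set by position: a region counted as a member when it shared not even 1 bp with a region higher in MLP than in C (MLP vs. C) or higher in MLP than in MLP-F (MLP vs. MLP-F). The 3 lists chose the members, so their number, their share and their MLP-F vs. C scores are descriptions, and nothing is read from the share.

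Livers came from newborn male Wistar rats on postnatal day 1, grouped by what the dam ate. The C diet held 18% casein, and the MLP and MLP-F diets each held 9%. Folic acid was 1 mg/kg in the C and MLP diets and 5 mg/kg in the MLP-F diet. Each group was 1 litter and 1 pooled library, made from 8 animals by the methods of the study and from 6 by the sample labels. Tag totals were 16008758 in the C library, 32741244 in the MLP library and 23087218 in the MLP-F library, so MLP was sequenced 2.05 times as deeply as C and 1.42 times as deeply as MLP-F.

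Several limits follow from these groups. MLP-F differed from C in both casein and folic acid, and no group received the control casein with added folic acid, so the effects of protein and folic acid on a member cannot be told apart. Regions higher in MLP-F than in MLP were not analysed here, so no member was shown to be higher in MLP-F than in MLP. Absence from a list says that a region did not pass its threshold and does not show that the libraries were equal there. With 1 pooled litter per group, differences between litters, between libraries and between diets cannot be told apart, no SD exists and no diet effect was tested. Wilson intervals cover counting error over regions only. More methylated copies in every cell of MLP-F livers and a different mix of cells in the liver cannot be told apart in pooled tissue either.

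As background, DNA methylation in mammals sits mainly on the cytosine of CpG pairs, and the capture protein used here is the domain that binds such methylated CpGs. Captured fragments are sequenced (MBD-seq), so a region rich in methylated CpG collects more reads than one poor in it. Folate carries the one-carbon units that remake methionine from homocysteine, and methionine gives rise to S-adenosylmethionine, the methyl donor of the DNA methyltransferases. The liver is the main site of this cycle, and casein, a milk protein, supplies amino acids that include methionine.

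The members mostly scored in the low part of the listed range. The lists give no fold, so the size of a difference was not measured, and strong and weak refer to the score alone. Each region carries a score, which is the −log10 p from MACS, the program that called the regions, multiplied by 10. It grades the excess of reads in one library over another, and the lists start at a score of 50, the cut-off set in that program. No correction for the number of places examined is part of the score. The study reported no differentially methylated region in MLP-F compared with C. The regions that it retained at its false discovery rate came from the MLP lists, so no member was among them. Membership therefore rests on the uncorrected cut-off alone. Members had a median score of 66.8, with quartiles of 56.9 and 84.4 and a range of 50 to 957. Their median length was 636 bp, with quartiles of 498 and 786 bp and a range of 250 to 8479 bp. Together they covered 11.2 Mb.

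The other 7766 MLP-F vs. C regions were those that overlapped an MLP list. Of these, 7363 overlapped MLP vs. C alone, which was 30.3% of all MLP-F vs. C regions (29.7 to 30.9), and their median score was 77.7 and median length 698 bp. Only 22 overlapped MLP vs. MLP-F alone (0.0905%, 0.0598 to 0.137), and 381 overlapped both lists (1.57%, 1.42 to 1.73). The rule therefore acted almost wholly through the MLP vs. C list.

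The share of regions that were members was lower in each higher band of score. Between 50 and 60, members were 5624 of 7407 regions, or 75.9% (74.9 to 76.9). From 60 to 80 they were 71.7% (70.7 to 72.7), and from 80 to 100 they were 63.4% (61.9 to 64.9). From 100 to 200 members made up 2140 of 4022 regions, or 53.2% (51.7 to 54.7). In the band from 200 to 500 the share was 50.6% (46.2 to 55.0), which overlaps the interval of the band before it. At 500 or more, 14 of 45 regions were members, or 31.1% (19.5 to 45.7), and 68.9% overlapped MLP vs. C alone. MLP-F vs. C and MLP vs. C share the single C library, so a low C signal enters both lists, and its part in these shares was not tested.

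**Figure D1:**
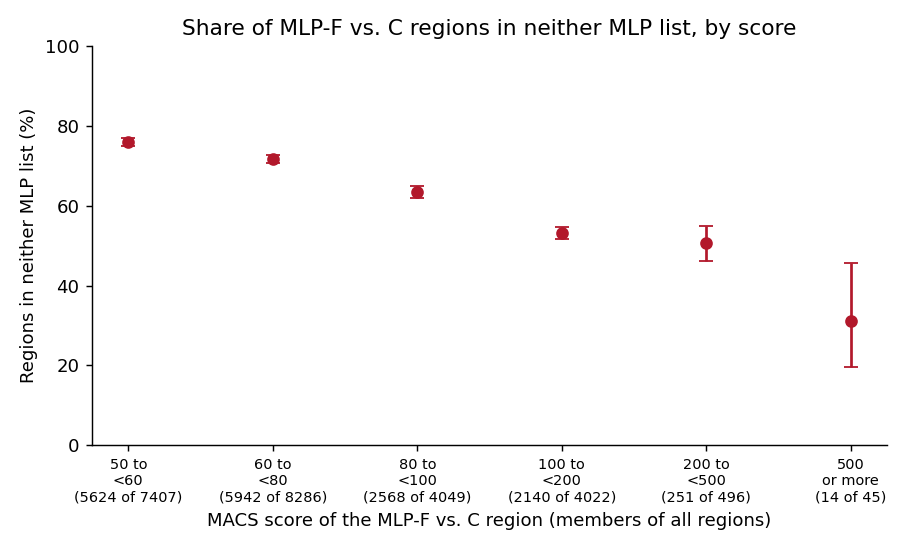
Percent of the MLP-F vs. C regions on chromosomes 1 to 20 that overlapped neither MLP list (y axis), by band of MACS score (x axis, with the members and all regions of each band in brackets). Bars are 95% Wilson intervals for counting error, and the points go from 75.9% in the lowest band to 31.1% at a score of 500 or more.

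Counted from the other side, 2405 members (14.5%) had a score of 100 or more, against 27.8% of the other regions and 18.8% of all MLP-F vs. C regions. A score of 200 or more was held by 265 members (1.6%), against 3.55% of the others and 2.23% of all regions. A score of 500 or more was held by 14 members (0.0846%), against 0.399% of the others and 0.185% of all regions. These shares come from the contrast the rule used and were not tested.

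Strong members were more often short than the other strong regions, in the same lists that the rule used. Length enters the rule itself, since a shorter region has fewer bases that could meet an MLP region. The part of this in the shares below was not tested. Among all scores, 1467 members were shorter than 400 bp, which was 8.87% (8.45 to 9.31), beside 5.95% (5.44 to 6.50) of the others and a background of 7.94% over all MLP-F vs. C regions. At a score of 100 or more the short share was 12.9% of members (11.6 to 14.3) and 6.95% of the others (5.95 to 8.10). At a score of 300 or more, 11 of 83 members were short, or 13.3% (7.56 to 22.2), against 1 of 87 others, or 1.15% (0.203 to 6.23). Among regions with a score of at least 500, 5 of the 14 members and 0 of the 31 others were short. A length of 2 kb was reached by 67 members (0.405%, 0.319 to 0.514) and 39 others (0.502%, 0.368 to 0.686). These intervals overlap, which does not show that the shares are equal.

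**Figure D2:**
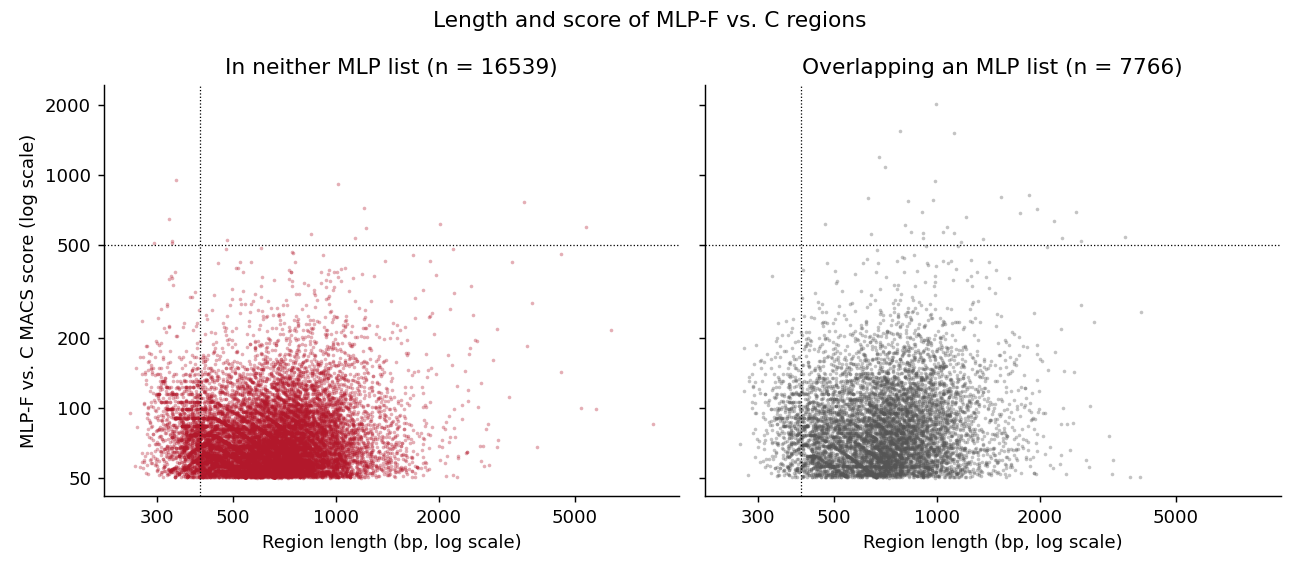
Score (y axis) against length in bp (x axis), both on log scales, for the 16539 members on the left and the 7766 other MLP-F vs. C regions on the right, with each point 1 region and dotted lines at 400 bp and at a score of 500. Of the 14 members with a score of 500 or more, 5 lie left of the length line, where none of the 31 others with such a score lies. A shorter region has fewer bases that could meet an MLP region, so length enters the rule that divides the panels.

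The 10 highest-scoring members lay on 8 chromosomes, at gaps from under 1 kb to over 80 kb from the nearest MLP vs. C region. All positions are on the rat assembly rn4, counted from 1. The highest score, 957, belonged to a region of 342 bp on chromosome 15 from 84834326 to 84834667. It was 6th by score in the whole MLP-F vs. C list on these chromosomes. A region 3.17 kb away, from 84837837 to 84838577, was in both MLP lists, where it scored 58.5 against C and 81.5 against MLP-F. MLP-F was therefore listed above C at a short strong region, and MLP above both other libraries at a weak region close by.

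The second member, with a score of 918, was 1018 bp on chromosome 1 from 242506095 to 242507112 and lay 31.9 kb from the nearest MLP vs. C region. A region of 3551 bp on chromosome 13 from 106661625 to 106665175 scored 765 and was 60.5 kb from the MLP vs. C list. On chromosome 3 a region from 148831502 to 148832713 scored 722, and an MLP vs. C region began only 0.776 kb away. These examples show that a high score occurred both far from and close to places where MLP also exceeded C.

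Of the next members, a region of 325 bp on chromosome 8 from 116648467 to 116648791 scored 648, at 83.3 kb from the MLP vs. C list. A region of 2013 bp on chromosome 1 from 18997454 to 18999466 scored 620.1, at 17.6 kb. On chromosome 12 the region from 4399700 to 4405096, 5397 bp long, scored 601. Scores of 593, 559.9 and 538 completed the 10 highest, for regions on chromosome 7 from 19176653 to 19177875, on chromosome 13 from 5395091 to 5395935, and on chromosome 2 from 128140428 to 128141563. None of the 10 highest-scoring members lay within 10 kb of a region with a gene name.

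The longest member was not a strong one. It covered 8479 bp on chromosome 12 from 4360717 to 4369195 and scored 85.1, which gave it place 4027 among the members by score. It lay 23.5 kb from an intronic region annotated to Zar1l, a relative of the oocyte gene Zar1. The strong 5397-bp member of the same chromosome lay 62.4 kb from that annotated region, and a further member, from 4408660 to 4411933, was 3274 bp long and scored 421. These 3 long members followed one another with no region of either MLP list within 40 kb to either side of the centre of the stretch. The nearest region of each MLP list lay outside that stretch, 18.2 kb from the 8479-bp member. The scores there were 102 in MLP vs. C and 83.2 in MLP vs. MLP-F. The other long members were a region of 6383 bp on chromosome 14 from 49295231 to 49301613 with a score of 216, a region of 5765 bp on chromosome 1 from 33120166 to 33125930 with 98.8, and a region of 5203 bp on chromosome 4 from 182542904 to 182548106 with 99.8.

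Members lay on every chromosome in nearly the same proportion. Their share of the MLP-F vs. C regions was lowest on chromosome 20, at 65.0% (61.3 to 68.5), and highest on chromosome 9, at 70.1% (67.4 to 72.6), and these intervals overlap. The median score of members stayed between 65.9 and 68.6 on all 20 chromosomes. Their density varied more, from 5.06 members per Mb on chromosome 5 and 5.27 on chromosome 2 to 8.64 on chromosome 19 and 9.86 on chromosome 12, with 6.47 overall. The other MLP-F vs. C regions were also sparsest on chromosome 5 (2.50 per Mb) and densest on chromosome 12 (5.17 per Mb), and MLP vs. C regions ran from 11 per Mb on chromosome 2 to 24.5 on chromosome 12. Members were thus densest on the chromosome where those lists were densest too. The 3 chromosomes with the most members per Mb had shares at the low end, where chromosome 12 had 65.6% (62.0 to 69.0), chromosome 19 had 66.0% (62.6 to 69.3) and chromosome 20 had the 65.0% given above, and each interval included the 68.0% of all chromosomes.

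**Figure D3:**
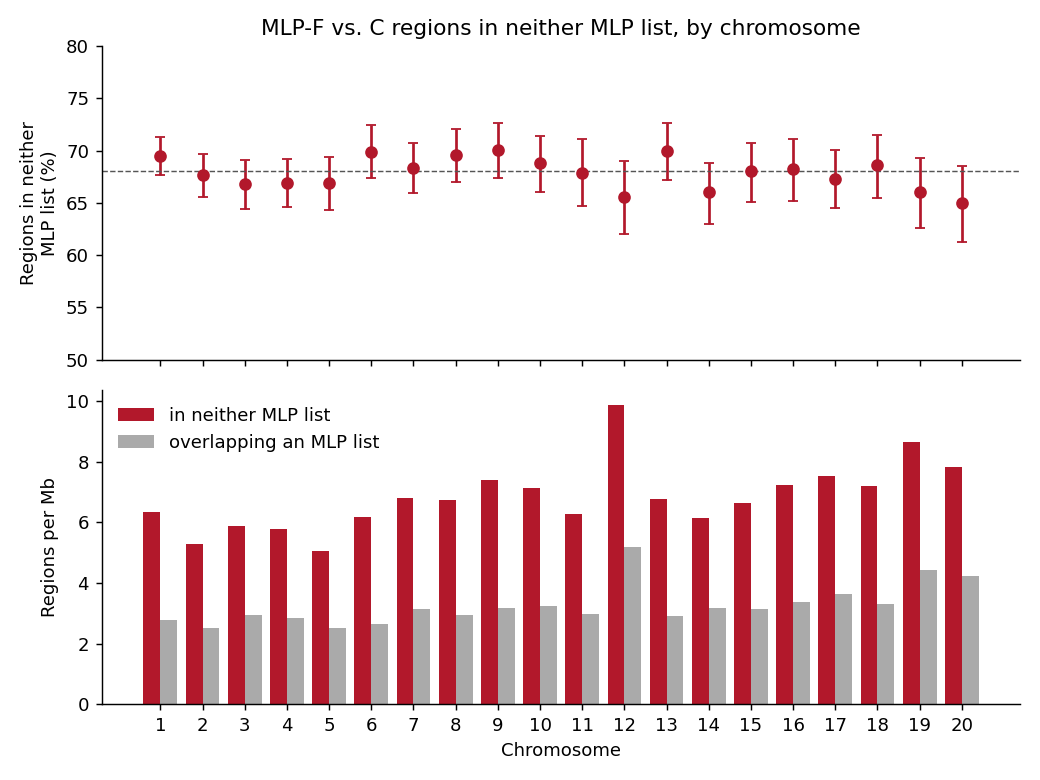
Above, the percent of the MLP-F vs. C regions of each chromosome that overlapped neither MLP list, with 95% Wilson intervals, a dashed line at 68.0% for all chromosomes and an axis that starts at 50%; below, members and the other MLP-F vs. C regions per Mb. Every share lies between 65.0% and 70.1%, while the density of members reaches 9.86 per Mb on chromosome 12.

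Chromosome ends did not hold more than their part. The outer 5 Mb at each end made up 7.82% of the length, taken from the largest end position in the lists, and held 7.77% of members and 7.71% of the other MLP-F vs. C regions. In windows of 1 Mb, 2463 of 2570 held at least 1 member, the median was 6, and 28 windows held 20 or more.

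The densest window was on chromosome 17 from 49000001 to 50000000. It held 32 members among 46 MLP-F vs. C regions, with scores from 50.2 to 282 and a median length of 809 bp, and 12 of the 32 were at least 1 kb long. The same window held 21 MLP vs. C regions and 3 MLP vs. MLP-F regions. On chromosome 16 from 21000001 to 22000000 there were 28 members of 32 regions, and on chromosome 10 from 101000001 to 102000000 there were 27 of 36. No annotated region with a gene name lay in any of these windows, and none of them was on chromosome 12, 19 or 20, the densest per Mb.

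Gaps from members to the MLP lists varied widely. The rule keeps every member off those lists, which held 13.3 (MLP vs. C) and 12.4 (MLP vs. MLP-F) regions per Mb. No such gap was computed for other positions, so these gaps are not shown to be particular to members. The median gap to the nearest MLP vs. C region was 19 kb, with quartiles of 7.17 and 43.4 kb and a maximum of 814 kb. An MLP vs. C region lay within 100 bp of 46 members (0.278%), within 1 kb of 686 (4.15%) and within 10 kb of 5322 (32.2%), while 1306 (7.90%) had none within 100 kb. The nearest MLP vs. MLP-F region was a median of 25.6 kb away and within 1 kb of 403 members (2.44%). Score did not follow this distance: the median was 66.3 for members within 1 kb of MLP vs. C, 66.9 from 1 to 10 kb, 67.0 from 10 to 100 kb and 66.1 beyond. A score of at least 100 was held by 13.3%, 15.0%, 14.4% and 14.2% of these members.

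**Figure D4:**
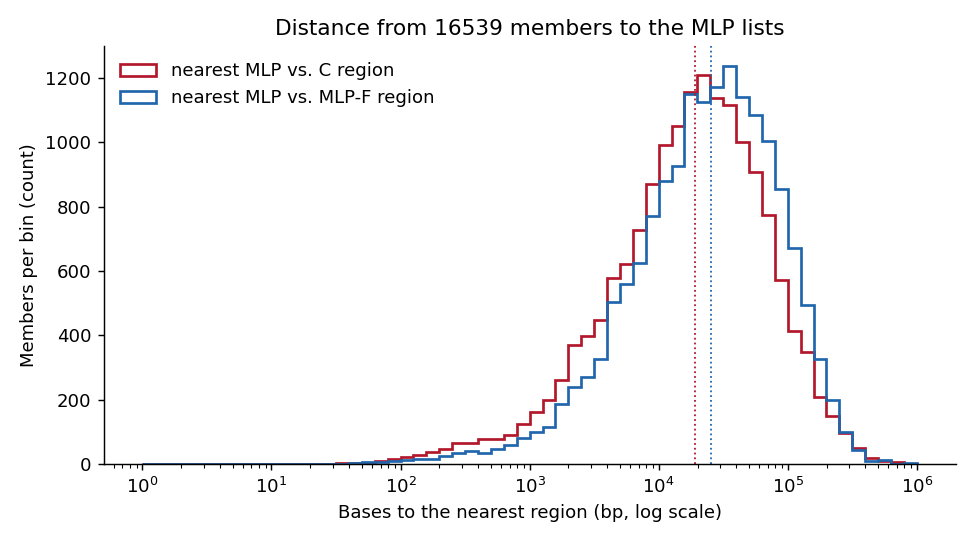
Number of members (y axis) by the gap in bp to the nearest region of each MLP list (x axis, log scale), with dotted lines at the medians. The medians are 19 kb to MLP vs. C and 25.6 kb to MLP vs. MLP-F.

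Regions on either side of the edge of the rule had similar scores. The closest members were 4 bp from an MLP vs. C region on chromosome 4 (134320017 to 134320717, score 89.8), 10 bp on chromosome 1 (122651143 to 122651532, score 59.6) and 11 bp on chromosome 3 (50325054 to 50325878, score 84.9). Just outside the rule, a region on chromosome 19 (11608475 to 11608919, score 113) shared 2 bp with an MLP vs. C region, and a region on chromosome 3 (47857764 to 47858452, score 82.8) shared 5 bp with an MLP vs. MLP-F region. The 64 members within 100 bp of either list had a median score of 63.6, and the 31 other regions that shared at most 100 bp had 63.9. Few regions sat at this edge, since 7342 of the 7766 others (94.5%) shared at least 50% of their own length.

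Most members were not joined to another member at the gap of 10 kb used here. With gaps of up to 20 kb, 66.3% stayed single. No such share was computed for the other MLP-F vs. C regions, so this is not shown to be particular to members. When members with gaps of up to 10 kb were joined, 13146 (79.5%) stayed single, and 3393 (20.5%) fell into 1573 clusters, of which 1378 were pairs, 152 held 3 members, 35 held 4, 7 held 5 and 1 held 6. The gap from a member to the next nearest member had a median of 36.6 kb.

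The cluster of 6 spanned 22.0 kb on chromosome 16 from 21635533 to 21657563. Its members scored 52.8, 85.5, 67.4, 54, 77.6 and 78.7 in order along the chromosome and were 427 to 1028 bp long. No MLP vs. C or MLP vs. MLP-F region lay within its span, and the nearest MLP vs. C region was 161 kb away. With gaps of up to 20 kb allowed, 9 members joined over 62.7 kb, still with no region of the MLP lists and no other MLP-F vs. C region between them. None of the 6 members scored above 85.5.

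The 7 clusters of 5 covered a wider range of scores, and 5 of them likewise had no region of either MLP list in their span. On chromosome 13, a cluster from 30427566 to 30453324 held scores from 52.7 to 459.6, and at a 20 kb gap 9 members joined over 57.6 kb together with 3 other MLP-F vs. C regions and 3 MLP vs. C regions. The nearest region with a gene name, 307 kb away, was annotated to Cntnap5a, a neuronal cell adhesion gene. On chromosome 3, a cluster from 137996 to 156174 held scores from 57.6 to 334. The others lay on chromosome 2 from 217879914 to 217902434 (54.3 to 108), chromosome 8 from 11443873 to 11464119 (55.3 to 96.9), chromosome 9 from 38152937 to 38174420 (51.2 to 104), chromosome 14 from 8248926 to 8275672 (55.8 to 108) and chromosome 18 from 38758907 to 38791441 (64.5 to 185). An annotated region of Mre11a, which encodes a nuclease that repairs broken DNA, was 134 kb from the cluster on chromosome 8.

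Gene context was available only through regions that the study had paired with a gene, all called annotated regions here. Most were regions of the MLP lists annotated to the nearest gene, which no member can overlap by the rule. Those of Dnmt1, Fgf5 and Mcm6 were instead loci that the study measured by bisulphite sequencing. The gaps given here run from a member to the annotated region and not to the gene or its transcription start site (TSS). Within 10 kb of such a region lay 244 members (1.48%), and 1076 (6.51%) lay within 50 kb. Of 851 gene symbols, 175 (20.6%) had a member within 10 kb and 523 (61.5%) within 50 kb. These are the backgrounds for the counts of genes that follow. Named neighbours leave out placeholder symbols, such as those starting with LOC or RGD, and small RNA names, which the 851 symbols include. The annotated regions near the 216 members with a named neighbour at 10 kb were intronic for 103 (47.7%), upstream for 67 (31.0%) and downstream for 43 (19.9%). Of all annotated regions, 46.0%, 28.1% and 23.5% were in these places.

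The strongest member with a named neighbour was on chromosome 17 from 29089866 to 29090865, with a score of 246, at 3.15 kb from a region annotated to Tmem170b, a membrane protein gene. The next, on chromosome 13 from 31910710 to 31911309, scored 227 and lay 2.81 kb from a region of Inhbb, which encodes a subunit of the hormones activin and inhibin. A region of 319 bp on chromosome 14 from 71050879 to 71051197 scored 212, at 1.53 kb from a region of Qdpr. Qdpr encodes dihydropteridine reductase, which restores the tetrahydrobiopterin used by the amino acid hydroxylases. The first of these was about 1 kb long and the last was among the short members.

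Further members with named neighbours scored from 155 to 193. They lay near regions of Serpina11, Rgl1 (an effector of Ras family GTPases, score 181), Dip2a (180.1), Mbnl2 (an RNA splicing factor, 177), Arhgap18 (161), Zc3h15 (158) and Alg2 (a mannosyltransferase of N-glycan assembly, 155). The member at Arhgap18, on chromosome 1 from 19103975 to 19104454, was the closest of these, at 0.327 kb from the annotated region.

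Members lay on both sides of the region annotated to Serpina11, a serine protease inhibitor gene of the liver. Whether either member lies inside the gene was not tested. The annotated region, intronic and on chromosome 6 from 128040534 to 128040999, scored 125 in MLP vs. C. An MLP-F vs. C region from 128040346 to 128041306 enclosed it with a score of 67.5 and was by the rule not a member. On one side a member from 128032037 to 128032603 scored 56.1, and on the other a member from 128046538 to 128047129 scored 193. MLP-F was therefore listed above C at 3 regions in a row and MLP above C at the middle one, and no region of MLP vs. MLP-F lay within 40 kb of the annotated region.

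**Figure D5:**
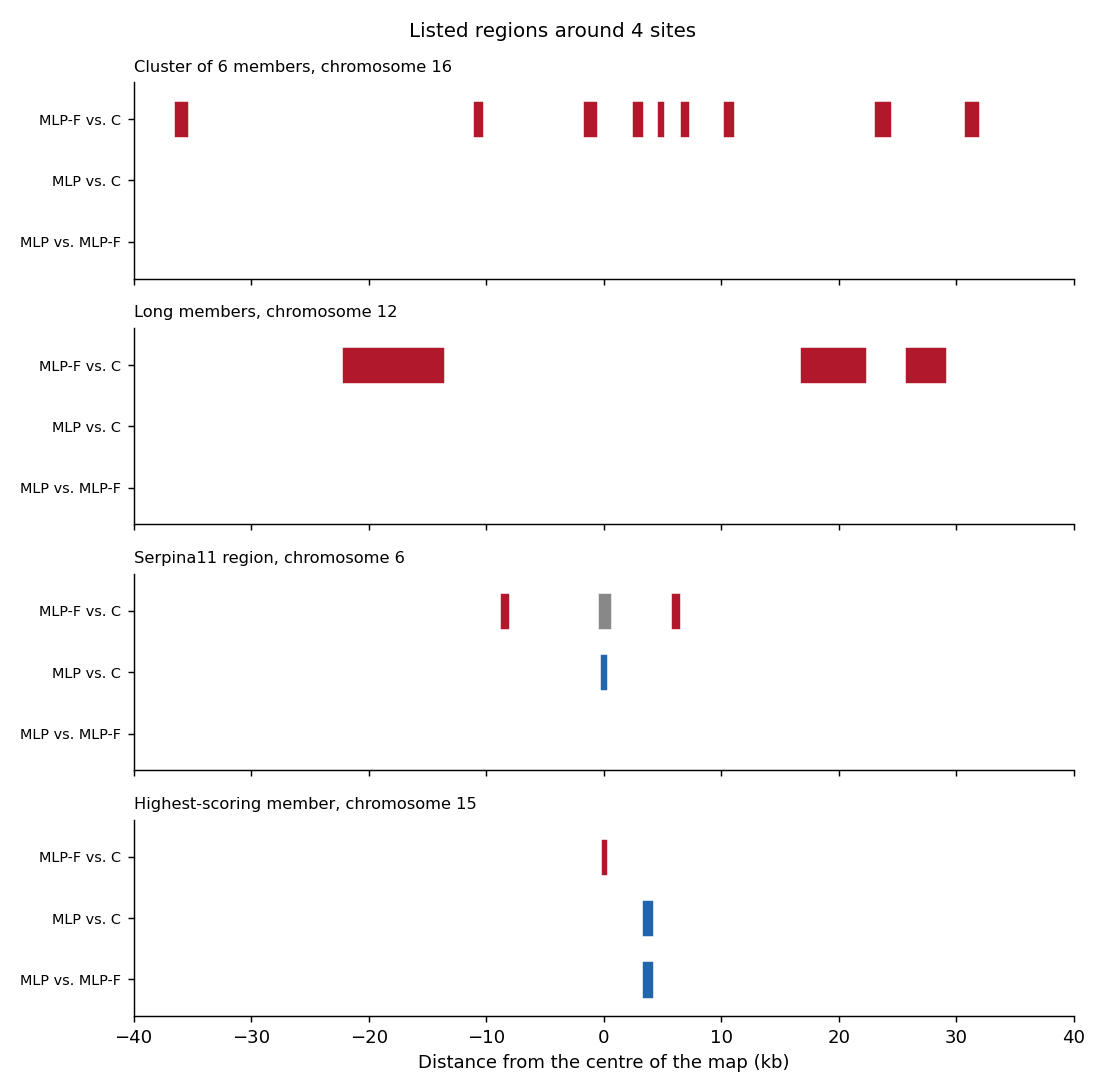
Regions of the 3 lists in 4 stretches that reach 40 kb to either side of their centre, plotted by distance from it in kb, with members in red, the other MLP-F vs. C region in grey and the regions of the MLP lists in blue. The chromosome 16 stretch holds 9 members and no MLP region. The chromosome 12 stretch holds 3 members and no MLP region, and the nearest one lies outside it, 18.2 kb from the 8479-bp member. The Serpina11 stretch holds 2 members beside 1 region that overlaps MLP vs. C. The chromosome 15 stretch holds 1 member with a region of both MLP lists nearby.

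Genes of the one-carbon cycle and of DNA methylation were examined as the group closest to the diet. Of 57 listed genes, 3 had an annotated region, none had a member within 10 kb and 1 had a member within 50 kb. That gene was Mtr, methionine synthase, which passes the methyl group of folate to homocysteine. A member of 715 bp on chromosome 17 from 68846391 to 68847105, with a score of 70.0, lay 13.1 kb from the intronic Mtr region. For Dnmt1, the maintenance methyltransferase, the nearest member was 353 kb from the annotated region, and for Tet1, which oxidises methylcytosine, it was 263 kb away. Outside this list, the gene Adk had 1 member (3126012 to 3126752 on chromosome 15, score 53.6) between its pair of annotated intronic regions. Adk encodes adenosine kinase, which removes the adenosine released from S-adenosylhomocysteine. With 3 annotated genes, these counts can carry no statement about the pathway.

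The lipid list, which also held fatty acid oxidation, counted 46 genes, of which 8 had an annotated region, 1 had a member within 10 kb and 4 within 50 kb. Elovl5, an elongase of polyunsaturated fatty acids, had a member 3.54 kb from its intronic region (chromosome 8, 82934032 to 82934858, score 60.9). Near Acadm, the medium-chain acyl-CoA dehydrogenase of mitochondrial fatty acid oxidation, a member of 2409 bp on chromosome 2 from 251883332 to 251885740 scored 64.0 at 13.8 kb from the annotated region. Members also lay 17.7 kb from a region of Gpam, the acyltransferase that starts glycerolipid synthesis (score 63.6), and 19.8 kb from one of Srebf2, which switches on genes of sterol synthesis (score 51.7). These 4 nearest members all had scores below the median of the members.

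For hormone and growth signals the nearest members also scored low. Of 38 insulin and FOXO genes, 5 were annotated, none had a member within 10 kb and 2 had a member within 50 kb, which were Enpp1, an inhibitor of insulin receptor signalling (15.4 kb, score 59.0), and Ppp2r5c, a subunit that directs a protein phosphatase to its targets (22.8 kb, score 56). Foxo3 had its nearest member at 66.0 kb. The list for the renin-angiotensin system and glucocorticoids held 15 genes, of which 2 were annotated, and Agtrap, which binds the angiotensin II receptor, had a member 31.5 kb from its region (score 59.0).

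Among 44 polycomb, trithorax and chromatin genes, 4 were annotated, 1 had a member within 10 kb and 3 within 50 kb. Smarca2, an ATPase of the SWI/SNF complexes, had a member of 331 bp at 2.84 kb from its intronic region (chromosome 1, 230160711 to 230161041, score 74.4). Sfmbt1, a polycomb-related protein, had one at 20.5 kb with a score of 123, and Setd2, a histone H3 lysine methyltransferase, had one at 37.7 kb with a score of 59.7.

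Genes of T cells and immune regulation had the most genes with an annotated region of the 10 gene lists. That count reflects the annotated regions of the study and not the members, and the study itself named some of these genes, such as Bach2, Ctla4 and Ptpn2. Of 45 genes, 13 were annotated, none had a member within 10 kb and 9 had a member within 50 kb. Over all gene symbols, 20.6% had a member within 10 kb and 61.5% within 50 kb. Among the nearest members of these 9 genes, the strongest scored 195. It lay 15.6 kb from the region of Bcl11b, a transcription factor of T cell commitment. Another, 1838 bp long, scored 171 and lay 18 kb from the region of Fyn, a Src family kinase. The nearest was at Satb1, a chromatin organiser of thymocytes, at 10.2 kb with a score of 70.4. Markers of other cells in newborn liver were few: 1 of 22 blood cell genes was annotated, Runx1, with a member at 32.3 kb and a score of 138, and 1 of 30 hepatocyte genes, Serpina11. Since these lists count regions and not RNA, they do not measure the cell make-up of the livers.

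Of 41 cell cycle genes, 3 were annotated and 1, the repressor E2f7, had a member within 50 kb (34.3 kb, score 96.6). The region of Mcm6, part of the helicase that opens DNA for replication, was 126 kb from its nearest member. Of 31 imprinted genes, the annotated one was Begain, with a member at 34.7 kb and a score of 61.3.

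A further 41 genes were those that the study named for its methylation libraries or listed in its annotation of the MLP vs. MLP-F regions, so this list is not independent of the data. Of them, 38 had an annotated region, 3 had a member within 10 kb and 25 within 50 kb. The 3 were Serpina11, Tyw3, a gene of transfer RNA modification (chromosome 2, 252362392 to 252363062, score 68.0, at 4.32 kb), and Arid5b, a DNA-binding partner of a histone demethylase (chromosome 20, 21140886 to 21141242, score 53.8, at 3.22 kb). Among the others, Fgf5 and Prdm8, neighbours on chromosome 14, had the same nearest member, from 12838455 to 12838880 with a score of 141, at 124 kb and 24.3 kb from their annotated regions.

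Where a gene had more than 1 annotated intronic region, the stretch between them lies within that gene, which places some members inside a gene. There were 18 such genes, chosen after the values had been seen, and 8 of them held 16 members. Vti1a, a SNARE protein of vesicle transport, held 4 over the 95.5 kb on chromosome 1 from 261710472 to 261805995, with scores of 61.3, 61.8, 55.5 and 66.8, beside 4 MLP vs. C regions. The gene listed as Q8CIN3_RAT held 5, with scores from 57.1 to 186. Dym held 2, and Aig1, Rgl1, Adk, Zfp385b and Bbs9 held 1 each. Of these 16 members, only the one with the score of 186 exceeded 100.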

How the data were processed

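MBD-seq reads of 1 pooled liver library per group (C, MLP, MLP-F) were aligned by the authors to rn4 with Bowtie, with 1 alignment kept per pair of 76-bp reads. CASAVA, Bowtie and rn4 are named in the submitters' processing notes, with versions not given in the sources used here. MACS was run by the authors on each pair of libraries with a bandwidth of 300 bp, a model fold of 32, a p-value cut-off of 1e-05 and an effective genome size of 2.00e+09 bp. The deposited lists give each region a position and a score, 10 times the −log10 p, with no fold or FDR. The scores depend on the depth of both libraries, and tag totals come from the supplement of the study, with 13322026 unique tags in C, 26145395 in MLP and 17306868 in MLP-F.

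Starts were converted to 1-based positions. Members were the MLP-F vs. C regions on chromosomes 1 to 20 with no overlap of 1 bp or more with either MLP list. The members, gene lists and comparisons were chosen with earlier results of these data known. Shares have 95% Wilson intervals, and no test was made, since each group was 1 library. The overlap, distance and clustering steps were tested on simulated regions with known answers. Python 3.11.15, numpy 2.4.6, pandas 2.3.3, SciPy 1.17.1 and matplotlib 3.10.9 were used.

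Regions were named by rule: the 10 highest-scoring members, the 5 longest, the largest clusters (ties kept), members within 10 kb of an annotated region of a gene in 10 lists or of a gene among those the study named, and the 10 highest-scoring members within 10 kb of any named region. Other regions and all genes given at over 10 kb were named after their values were seen. Names and places of the annotated regions come from the supplementary datasets of the study, without their fold or FDR. Alternatives were other overlap rules, score thresholds, cluster gaps and distances. No rn4 sequence or annotation was used, so no sequence is shown and the planned comparison of genomic features was not run. Expression arrays and the lists of regions higher in C than in MLP-F or in MLP-F than in MLP were not analysed here.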

Additional observations from a re-analysis of the deposited data

Results flagged for a closer look

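MLP-F vs. C regions outside chromosomes 1 to 20 were left out of the members. On chromosome X, 242 of 375 regions (64.5%, 95% Wilson interval 59.6 to 69.2) overlapped neither MLP list, with a highest score of 359. On sequence not placed on a chromosome, 644 of 898 regions (71.7%, 68.7 to 74.6) overlapped neither list, with a highest score of 1131 for a region from 8893475 to 8907719. That score is above the 957 of the highest member on chromosomes 1 to 20. Both counts are above 0 in data that the comparisons did not use, which is why they are given.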

How the results depend on the processing

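The number of members stayed within 1.5 times 16539, between 15653 and 23902, under 8 alternatives on overlap, on the other lists and on sequence, and it was 2405 or 265 when only MLP-F vs. C regions with a score of 100 or 200 and more were used, which leaves fewer regions by construction. The share in neither MLP list was 70.7% with a reciprocal overlap of 50%, 64.4% with regions within 1 kb counted as shared, 69.1% with the midpoint rule, 52.7% and 49% at a score of 100 or 200 and more, 86.8% and 73.4% when the MLP lists were held to a score of 100 or 60 and more, and 98.3% with the MLP vs. MLP-F list alone. At a score of 100 and more the median score was 124 and the median length 694 bp. Chromosome 9 had a share of 73.2% with the reciprocal overlap, 67.0% at 1 kb and 53.8% at a score of 100 and more, and chromosome 20 had 61.3% and 55.6% under the last 2 of these. At a score of 100 and more the highest share was on chromosome 13 (58.1%) and the lowest on chromosome 19 (47.2%). The median gap to MLP vs. C was 68.3 kb when that list was held to a score of 100 and more. Gaps of 5 and 20 kb gave 958 and 2421 clusters, and distances of 5 and 50 kb gave 132 and 1076 members near annotated regions. Of 37 alternatives, 15 kept the value and 22 moved it. All of these values were counts, shares or medians, which have no sign to reverse. No paired analysis was possible because each group was 1 library, and for the same reason no replicate could be left out. The depth of the C library, the smallest, limits both lists made against it, and the part of depth in the share of members was not tested.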

Other observations

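Scores are deposited to 2 decimals, and many regions carried the same score at that precision. The score repeated most often among MLP-F vs. C regions at 100 or more was 105.99, held by 58 regions of 308 to 442 bp, of which 48 were members. The next, 114.00, was held by 50 regions of 298 to 441 bp, of which 36 were members, and 122.18 was held by 39 regions of 289 to 442 bp, of which 31 were members. The next scores in this order were 101.52, held by 37 regions of 451 to 864 bp with 17 members, and 103.86, held by 28 regions of 458 to 1103 bp with 18 members. Among members shorter than 400 bp with a score of at least 100, 150 of 311 (48.2%, 95% Wilson interval 42.7 to 53.8) had a score that at least 5 regions shared, against 498 of 2094 longer members (23.8%, 22.0 to 25.7). Over all scores the order was the other way, with 856 of 1467 short members (58.4%, 55.8 to 60.8) and 9578 of 15072 longer members (63.5%, 62.8 to 64.3). In the other MLP-F vs. C regions at 100 or more the shares were 32.7% (25.7 to 40.5) for short and 28.2% (26.3 to 30.2) for longer regions. The lists do not give the read numbers behind each score, and this pattern was seen in the data and not tested.

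Other wide groups of members lay on chromosomes 17 and 3. Gene positions were not used, so whether these groups overlap genes was not tested. On chromosome 17, 8 members joined over 63.2 kb from 49272942 to 49336110 at gaps of up to 20 kb, with scores from 51.8 to 148 and 4 MLP vs. C regions among them. On chromosome 3, 7 members joined over 67.4 kb from 41587574 to 41654949, with scores from 56.1 to 102, 3 MLP vs. C regions and 2 MLP vs. MLP-F regions.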
